A study of Mus musculus with 6 samples.

Results

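Hair follicle matrix cells were compared with outer root sheath (ORS) cells from mouse skin that lacks both Ezh1 and Ezh2 (2KO). The pair makes up 2 of the 6 arrays of the series and was chosen by its labels as the 2KO matrix and the 2KO ORS sample. The same contrast in wild type (WT), from 2 other arrays, shows which differences between the lineages are also present without the 2 genes. Each population was purified by FACS from skin of mice aged 14 days on a mixed C57B6 and CD1 background, with RNA of female and male mice in all 4 samples. The groups are thus Ezh1/2 2KO matrix, Ezh1/2 2KO ORS, Ezh1/2 WT matrix and Ezh1/2 WT ORS, each with 1 array. The labels do not give the Cre driver, the deleted exons, the number of mice behind a sample or the surface markers of the sort.

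Matrix cells sit in the hair bulb, divide rapidly and give rise to the hair shaft and to the inner root sheath that moulds it. The ORS is the outer wall of the follicle, lies on the basement membrane, is continuous with the epidermis and houses the stem cells from which later follicles grow. The enzymes Ezh1 and Ezh2 can each drive Polycomb repressive complex 2 (PRC2), which puts a repressive methyl mark on histones at developmental genes and helps to hold the programmes of other lineages off.

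Values are deposited MAS5 signals, a linear brightness per probe set, and each gene is given by its brightest probe set. Signals under 83.2, the median of all probe sets, were raised to that floor before a log2 ratio of matrix over ORS was taken, so a positive ratio means higher in matrix. Where only 1 of the arrays was above the floor the ratio bounds the fold from below, and a gene under the floor on both arrays counted as not measured. A gene is called higher or lower when the ratio reaches 2-fold. With 1 array per group no difference has a replicate check, no test was possible and no p-value is given. The share of probe sets above the floor ran between 47.7% and 53.1% over the 6 arrays.

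The targeted genes were examined first. Ezh2 had a signal of 1725 in 2KO matrix and 378 in 2KO ORS, against 3578 in WT matrix and 2151 in WT ORS. Its signal was lower on both 2KO arrays than on the WT arrays, and it was 4.57-fold higher in 2KO matrix than in 2KO ORS, a wider gap than the 1.66-fold between the WT samples. Whether cells with an intact Ezh2 were part of the 2KO matrix sample was not tested, and the labels do not say whether the probe set lies in the deleted part. The brightest Ezh1 probe set read 89.4 in 2KO matrix and 51.6 in 2KO ORS, against 317 in WT matrix and 380 in WT ORS, so that Ezh1 was near or below the floor on both 2KO arrays. Of the 13 genes of PRC2 and its partners measured in 2KO, Ezh2 was the only one past 2-fold in either direction, beside 13.8% of all measured genes.

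The labels of the populations were checked against 8 markers each. All 8 matrix markers were higher in 2KO matrix than in 2KO ORS, as all 8 were in WT. Msx2, a homeobox factor of the hair matrix, had a signal of 2307 in 2KO matrix and 205 in 2KO ORS, against 6424 in WT matrix and 269 in WT ORS. The 11.3-fold difference in 2KO compares with 23.9-fold in WT. The ORS markers separated the 2KO samples far less. Only Krt15 and Tcf7l1 of the 8 were lower in 2KO matrix by 2-fold, and Krt79 was higher, whereas 7 of the 8 were lower in WT matrix. The summed signal of the 8 ORS markers was 83677 in 2KO matrix and 106480 in 2KO ORS, against 26426 in WT matrix and 116711 in WT ORS. Sox9, the transcription factor of ORS and bulge stem cells, read 2345 in 2KO matrix and 4650 in 2KO ORS, against 186 in WT matrix and 5089 in WT ORS. Its difference was therefore 1.98-fold in 2KO, just short of the call, and 27.4-fold in WT, and a further probe set gave 2.02-fold in 2KO and 28.2-fold in WT. For Sox9 the 2KO matrix is the sample that stands apart from its WT counterpart. Whether ORS cells were carried into the 2KO matrix sort was not tested, and in bulk samples more cells of a type and more RNA per cell cannot be told apart.

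Of 12104 genes measured in 2KO, 630 were at least 2-fold higher in matrix (5.2%) and 1042 were lower (8.61%). In 2KO the higher genes made up 37.7% of the calls, a share that was 47.4% when arrays were scaled to a common median and 26.1% when they were scaled to the hybridisation controls. Of the 2KO calls, 113 higher and 135 lower genes had 1 array under the floor. In WT, 983 of 11433 measured genes were higher (8.6%) and 1593 were lower (13.9%). At 4-fold the counts were 114 higher (0.942%) and 171 lower (1.41%) in 2KO, against 179 higher (1.57%) and 608 lower (5.32%) in WT, so the counts of the 2 genotypes differed most for the strongly ORS-biased genes. Over the 11081 genes measured in both genotypes, the log2 ratios had an SD of 0.75 in 2KO and 1.06 in WT, and 62.4% of genes had the smaller ratio in size in 2KO. The 2 sets of ratios ran in the same direction, with Pearson's r = 0.71 and Spearman's rho = 0.70 across genes. Those genes share the probe sets and the array design but no array, and genes are not independent replicates.

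Of the 983 genes higher in WT matrix, 352 (35.8%) were also at least 2-fold higher in 2KO matrix, 615 came within 2-fold, 7 were lower and 9 were not measured. Of the 615 within 2-fold, 538 still lay on the same side of 0. Of the 1593 genes lower in WT matrix, 697 (43.8%) were also lower in 2KO matrix, 828 came within 2-fold, 22 were higher and 46 were not measured. Among genes with a 4-fold difference in WT, 129 of the 179 higher genes and 390 of the 608 lower genes were still past 2-fold in 2KO (72.1% and 64.1%). Read from the mutant side, 352 of the 630 genes higher in 2KO matrix (55.9%) and 697 of the 1042 lower genes (66.9%) had the same call in WT. These shares depend on the scaling of the arrays, and the share of WT-higher genes still higher in 2KO was 15.9% when arrays were scaled to the hybridisation controls.

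**Figure D1:**
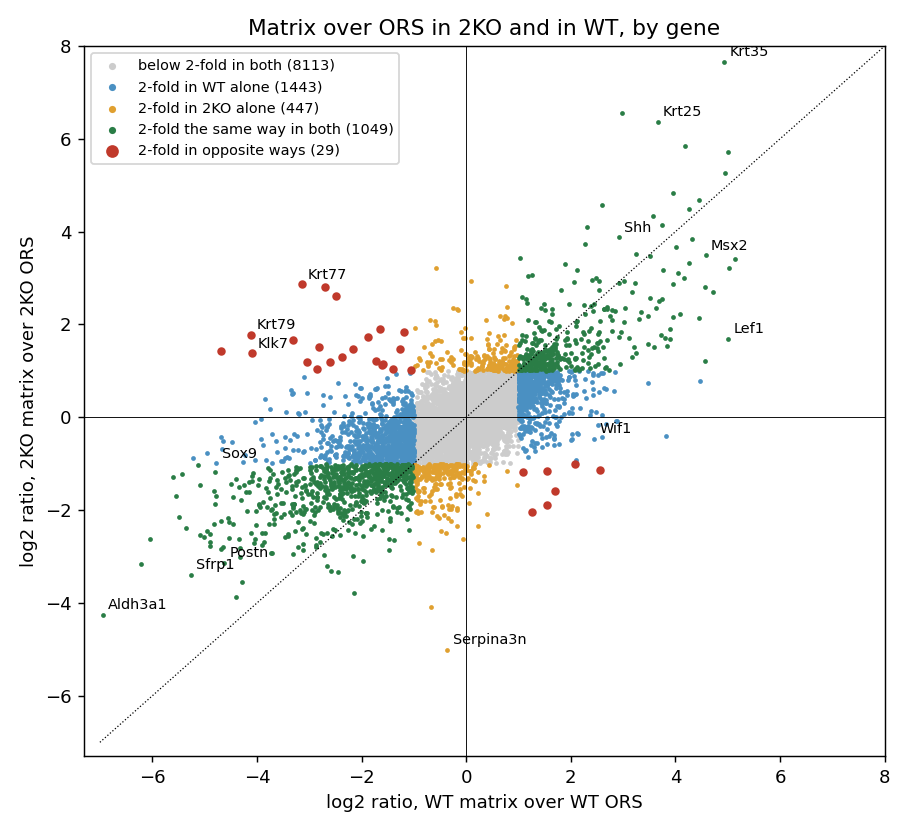
Each point is a gene, with its log2 ratio of matrix over ORS in 2KO on the y axis and in WT on the x axis, coloured by whether it passes 2-fold in 1 genotype, in both the same way, or in opposite ways; the dotted line marks equal ratios. Of the points, 352 are higher and 697 lower past 2-fold in both genotypes and 29 are past it in opposite ways, and most points to the left of 0 lie above the dotted line, nearer 0 in 2KO than in WT.

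Transcription factors of the matrix were mostly higher in 2KO matrix. Of 26 measured in 2KO, 16 were higher and 2 lower, with a median log2 ratio of 1.62, while the median over all measured genes was 0.06. For this list and those below, the shares over all measured genes were 5.2% higher and 8.61% lower in 2KO. The WT shares were 8.6% and 13.9%. In WT, 18 of 25 were higher and 3 lower, with a median of 2.33, and 15 of those 18 were also higher in 2KO. Dlx3, a homeobox factor needed for hair differentiation, had a signal of 1337 in 2KO matrix and 106 in 2KO ORS, against 2951 in WT matrix and 184 in WT ORS. Foxn1, the gene mutated in nude mice, read 637 in 2KO matrix and 43.3 in 2KO ORS, against 671 in WT matrix and 41.3 in WT ORS. Hoxc13, a regulator of hair keratin genes, read 3286 in 2KO matrix and 442 in 2KO ORS, against 5489 in WT matrix and 726 in WT ORS. All 3 had similar ratios in both genotypes, 12.6-fold for Dlx3, at least 7.65-fold for Foxn1 and 7.43-fold for Hoxc13 in 2KO beside 16.0-fold, at least 8.07-fold and 7.56-fold in WT. Dlx3 and Foxn1 have 2 measured probe sets each, of which 1 was past 2-fold in 2KO, and Hoxc13 has 1.

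Other factors of the same list had a much smaller difference in 2KO. Lef1, the WNT effector that marks the hair precortex, read 2601 in 2KO matrix and 803 in 2KO ORS, against 5115 in WT matrix and 159 in WT ORS. Its 3.24-fold difference in 2KO stands beside 32.3-fold in WT, with the 2KO ORS brighter and the 2KO matrix dimmer than the WT samples. Msx1 read 2111 in 2KO matrix and 480 in 2KO ORS, against 4277 in WT matrix and 195 in WT ORS. Sp6, a zinc-finger factor of hair and tooth development, read 1281 in 2KO matrix and 765 in 2KO ORS, against 1545 in WT matrix and 139 in WT ORS, and did not reach 2-fold in 2KO. Dlx5 behaved likewise, with 436 in 2KO matrix and 328 in 2KO ORS, against 452 in WT matrix and 91.8 in WT ORS. For Sp6 and Dlx5 the 2KO ORS was the array that moved. The 2 lower factors in 2KO were Prdm1, with a log2 ratio of -1.37 against 0.34 in WT, and Vdr, the vitamin D receptor, with -1.05 against -1.89.

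Inner root sheath and hair shaft genes gave the widest differences between the 2KO samples. Krt25, Krt28 and Krt71, keratins of the inner root sheath, are shown with their promoters because they rank among the 20 largest ratios in 2KO and share motifs at their starts. The sequences are from RefSeq, assembly GRCm38.p6, from 250 bases before to 50 bases after the start, written 5′ to 3′ along the gene. Krt25 lies at chr11:99322902-99323201 (minus strand), Krt28 at chr11:99374854-99375153 (minus strand) and Krt71 at chr15:101743048-101743347 (minus strand). Capitals mark matches on either strand to TATAAA (the TATA box), CCAAT (the motif of NF-Y) and TTTGAA (found in many mitotic genes and, as part of the longer CTTTGAAG, a WNT effector motif).
Krt25: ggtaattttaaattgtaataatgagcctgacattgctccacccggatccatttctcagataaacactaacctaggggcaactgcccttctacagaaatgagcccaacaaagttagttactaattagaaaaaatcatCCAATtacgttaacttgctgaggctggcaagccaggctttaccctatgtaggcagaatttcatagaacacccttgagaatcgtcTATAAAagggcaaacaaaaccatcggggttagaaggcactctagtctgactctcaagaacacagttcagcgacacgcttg
Krt28: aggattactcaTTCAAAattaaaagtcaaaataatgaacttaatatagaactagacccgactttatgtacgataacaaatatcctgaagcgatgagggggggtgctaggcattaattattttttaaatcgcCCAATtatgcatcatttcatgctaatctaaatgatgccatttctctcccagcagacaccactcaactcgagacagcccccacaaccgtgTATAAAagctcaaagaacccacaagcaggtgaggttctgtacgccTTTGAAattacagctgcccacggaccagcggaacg
Krt71: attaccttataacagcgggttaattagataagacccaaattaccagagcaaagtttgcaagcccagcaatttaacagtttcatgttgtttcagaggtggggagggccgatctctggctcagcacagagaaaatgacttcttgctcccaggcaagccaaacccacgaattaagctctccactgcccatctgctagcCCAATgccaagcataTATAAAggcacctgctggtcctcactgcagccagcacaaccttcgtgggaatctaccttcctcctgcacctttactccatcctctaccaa
All 3 windows hold 1 TATAAA and 1 CCAAT upstream of it. Among 15 of the 16 inner root sheath genes on the list that had a promoter in the table, 9 held TATAAA (60.0%), against 14.2% of the 27025 promoters in the table. Among 36 of 38 keratin-associated protein genes, 29 held it (80.6%) and 5 held CTTTGAAG (13.9%), against 1.74% of all promoters for CTTTGAAG. Of all promoters, 38.0% held CCAAT and 18.2% held TTTGAA. A match is a description of the letters and not evidence that a factor binds there.

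Krt25 had a signal of 11127 in 2KO matrix and 135 in 2KO ORS, against 13303 in WT matrix and 1052 in WT ORS. Krt28 read 7483 in 2KO matrix and 131 in 2KO ORS, against 10128 in WT matrix and 557 in WT ORS. Krt71 read 2277 in 2KO matrix and 129 in 2KO ORS, against 4429 in WT matrix and 331 in WT ORS. All 3 were dimmer on both 2KO arrays than on their WT counterparts, and more so in ORS, which left larger ratios in 2KO (82.4-fold, 57.1-fold and 17.7-fold) than in WT (12.6-fold, 18.2-fold and 13.4-fold). Krt73, another keratin of the sheath, read 9619 in 2KO matrix and 102 in 2KO ORS, against 2625 in WT matrix and 332 in WT ORS. It was the only one of these 4 keratins that was brighter in 2KO matrix than in WT matrix, and its ratio was 94.1-fold in 2KO and 7.91-fold in WT. Of 14 inner root sheath genes measured in 2KO, 10 were higher in matrix and 1 lower, with a median log2 ratio of 1.96, and 9 of the 11 higher in WT were higher in 2KO too. Tgm3, a crosslinking enzyme of the sheath, read 493 in 2KO matrix and 152 in 2KO ORS, against 1153 in WT matrix and 70.9 in WT ORS. Padi4, an arginine deiminase, fell short of 2-fold, with 243 in 2KO matrix and 145 in 2KO ORS, against 1341 in WT matrix and 253 in WT ORS. The 1 lower member, the protease gene Ctsl, was lower in both genotypes.

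Hair shaft genes followed the same pattern, with 11 of 15 measured members higher in 2KO matrix and 0 lower. In WT, 10 of 15 were higher and 0 lower, and 9 of the 10 were also higher in 2KO. The median log2 ratio was 2.36 in 2KO and 1.43 in WT. Krt35, a hair keratin of the early cortex and cuticle, gave the largest ratio of all genes in 2KO. Its signal was 18316 in 2KO matrix and 90.8 in 2KO ORS, against 19670 in WT matrix and 645 in WT ORS, or 202-fold in 2KO and 30.5-fold in WT. Krt36 read 1902 in 2KO matrix and 84.9 in 2KO ORS, against 2001 in WT matrix and 105 in WT ORS. Krt31 read 2361 in 2KO matrix and 98.7 in 2KO ORS, against 1303 in WT matrix and 216 in WT ORS. On the 2KO ORS array these 3 keratins lay just above the floor, and in 2KO matrix all 3 were within 2-fold of WT matrix. Selenbp1, Mt4 and S100a3, further genes bright in the hair-forming cells, were 38.4-fold, 52.7-fold and 14.3-fold higher in 2KO matrix, and 30.7-fold, 32.0-fold and 19.9-fold in WT. Prr9 was the odd member, since it read 11403 in 2KO matrix and 2227 in 2KO ORS, against 1323 in WT matrix and 490 in WT ORS.

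Keratin-associated proteins, the matrix in which hair keratins are embedded, were mostly below the floor on these arrays. Only 10 of 38 were measured in 2KO, and 5 of them were higher in matrix and 2 lower. In WT 6 of 10 were higher, and 5 of these 6 were higher in 2KO. Krtap8-1 read 4595 in 2KO matrix and 179 in 2KO ORS, against 11200 in WT matrix and 510 in WT ORS. Krtap7-1 read 581 in 2KO matrix and 62.4 in 2KO ORS, against 2629 in WT matrix and 111 in WT ORS, and Krtap15 read 268 in 2KO matrix and 38.6 in 2KO ORS, against 2739 in WT matrix and 185 in WT ORS. All 3 were dimmer in 2KO matrix than in WT matrix while the direction between matrix and ORS stayed. Krtap17-1 was the exception in both genotypes, with log2 ratios of -2.50 in 2KO and -3.41 in WT. Hair keratins and keratin-associated proteins have close paralogs, and probe sets can share signal among them.

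**Figure D2:**
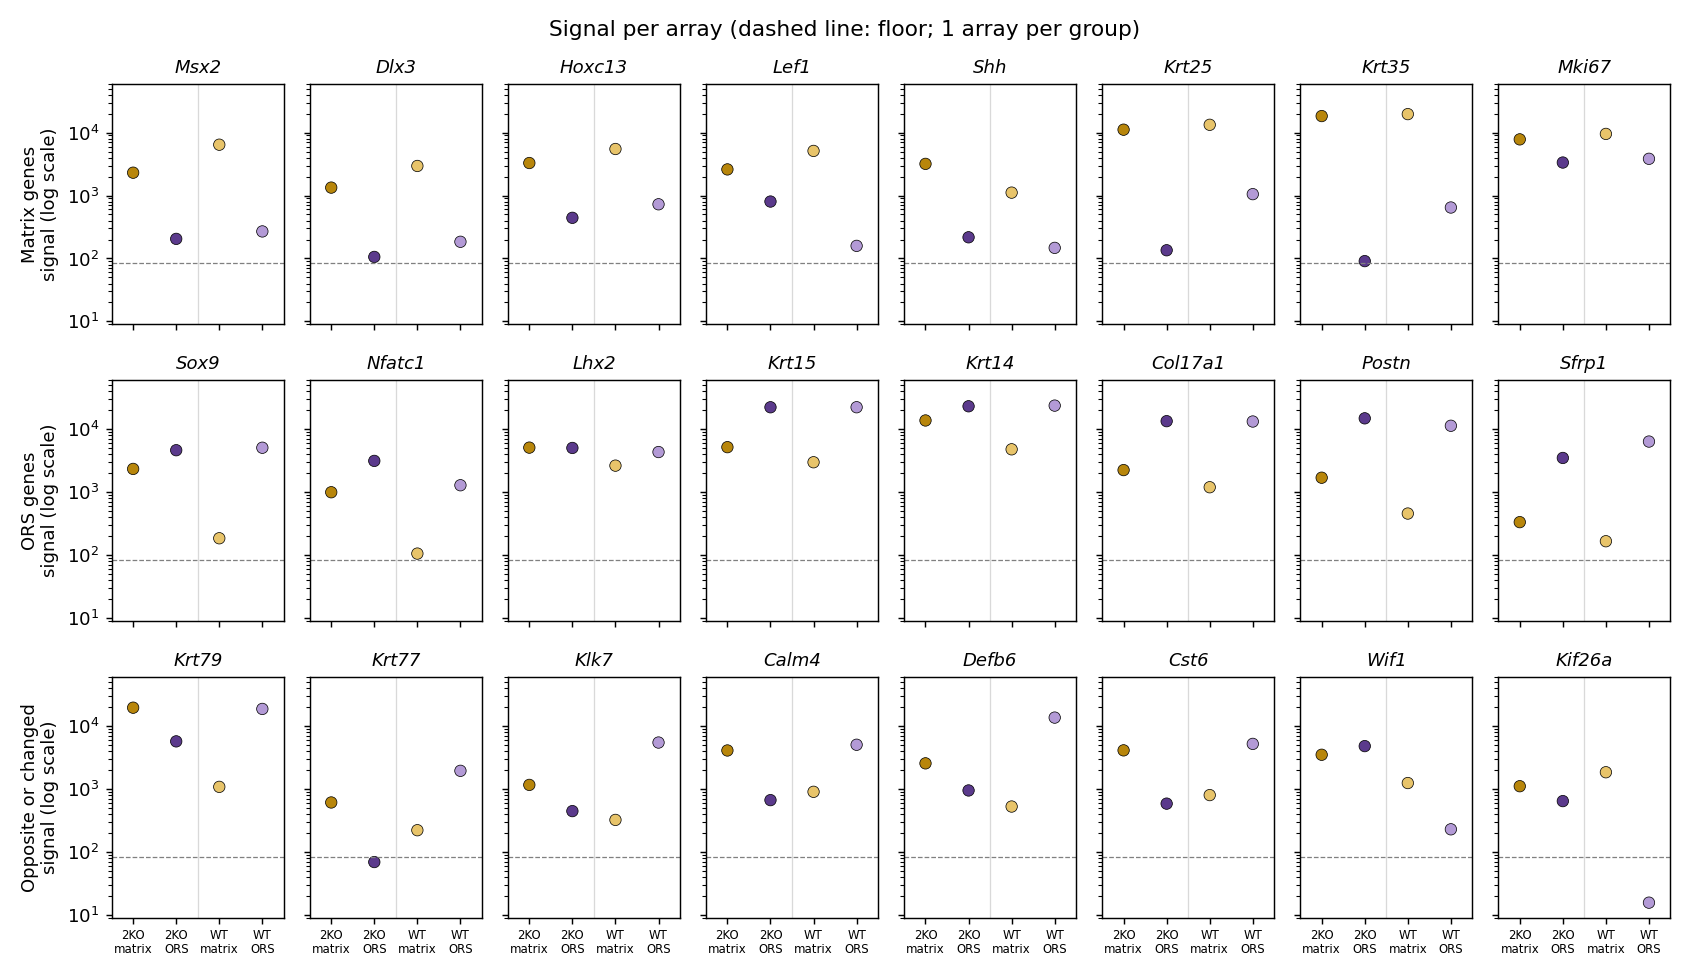
Each panel is a gene and each point 1 array, in the order 2KO matrix, 2KO ORS, WT matrix and WT ORS, with the MAS5 signal on a log scale and the floor of 83.2 as a dashed line. In the top row the 2KO matrix lies above the 2KO ORS for every gene, in the middle row the 2KO matrix lies above the WT matrix for every gene, and in the bottom row the 2KO pair runs against the WT pair or has a much smaller gap.

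Genes of mitosis were higher in 2KO matrix as a group. Of 33 measured, 23 were higher and 0 lower, with a median log2 ratio of 1.20, and all 33 had a ratio above 0. Across all measured genes 5.2% were higher and 8.61% lower in 2KO, and 8.6% and 13.9% in WT. In WT 29 were higher and 0 lower, with a median of 1.48, and all 23 of the 2KO calls were WT calls too. Promoters of the cyclin gene Ccnb2, at chr9:70421505-70421804 (minus strand), and of the kinase gene Plk1, at chr7:122159185-122159484 (plus strand), are shown as examples with both CCAAT and TTTGAA. That of Msx2, at chr13:53472731-53473030 (minus strand), is set beside them as that of the matrix marker described first.
Ccnb2: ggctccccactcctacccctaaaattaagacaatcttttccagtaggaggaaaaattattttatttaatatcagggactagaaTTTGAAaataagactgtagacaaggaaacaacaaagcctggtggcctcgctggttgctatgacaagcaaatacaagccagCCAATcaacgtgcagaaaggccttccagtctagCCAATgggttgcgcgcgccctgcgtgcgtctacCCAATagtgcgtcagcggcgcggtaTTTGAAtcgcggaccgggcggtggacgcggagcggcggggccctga
Plk1: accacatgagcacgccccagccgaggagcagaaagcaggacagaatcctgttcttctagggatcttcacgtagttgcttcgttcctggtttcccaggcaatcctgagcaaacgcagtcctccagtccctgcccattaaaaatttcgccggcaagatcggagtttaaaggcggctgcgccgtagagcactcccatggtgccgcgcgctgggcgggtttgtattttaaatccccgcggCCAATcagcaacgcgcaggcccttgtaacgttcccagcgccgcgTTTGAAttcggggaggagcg
Msx2: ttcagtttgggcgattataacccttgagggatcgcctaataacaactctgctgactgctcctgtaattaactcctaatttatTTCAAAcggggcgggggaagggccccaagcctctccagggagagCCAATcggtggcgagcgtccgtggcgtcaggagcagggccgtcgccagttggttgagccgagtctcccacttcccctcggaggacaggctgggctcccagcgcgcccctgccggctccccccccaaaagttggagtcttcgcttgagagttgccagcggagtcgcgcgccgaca
In Ccnb2 a TTTGAA and in Plk1 the only TTTGAA lie close to the start, downstream of CCAAT. Only 26 of the 33 mitosis genes had a promoter in the table, which is 78.8% and under the 80% required here before a share over a list was given. Ccnb2 had a signal of 3076 in 2KO matrix and 1104 in 2KO ORS, against 3843 in WT matrix and 1185 in WT ORS. Plk1 read 1097 in 2KO matrix and 382 in 2KO ORS, against 1408 in WT matrix and 445 in WT ORS. Both are among the genes with nearly the same ratio in the 2 genotypes, 1.48 and 1.52 in log2 for 2KO and 1.70 and 1.66 for WT. Mki67, the proliferation marker, read 7807 in 2KO matrix and 3345 in 2KO ORS, against 9534 in WT matrix and 3834 in WT ORS.

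DNA replication genes differed less between matrix and ORS. Of 29 measured in 2KO, 1 was higher and 0 lower, beside 5.2% and 8.61% of all genes, with a median log2 ratio of 0.58. In WT 9 were higher and 0 lower, with a median of 0.85. The 1 gene higher in 2KO was Ccne2, a G1/S cyclin, with 596 in 2KO matrix and 227 in 2KO ORS, against 822 in WT matrix and 313 in WT ORS. Of 24 of these 29 genes with a promoter, 62.5% held CCAAT and 12.5% held TTTGAA. E2f2, a proliferation factor outside that list, was 11.1-fold higher in 2KO matrix and 11.4-fold in WT. Of all measured genes, 13.8% were past 2-fold in either direction in 2KO. Among 7 inhibitors of cell cycle kinases, Cdkn2a, a Polycomb target in many cell types, was the only one past 2-fold in 2KO. It read 1256 in 2KO matrix and 2840 in 2KO ORS, against 55.5 in WT matrix and 26.4 in WT ORS, so it was above the floor on the 2KO arrays alone. Cdkn2b, its neighbour, was level between the 2KO samples at 2026 in 2KO matrix and 1950 in 2KO ORS, against 1163 in WT matrix and 227 in WT ORS.

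On the ORS side, most genes that fasten cells to the basement membrane were lower in matrix in both genotypes, by less in 2KO than in WT. Of 16 measured in 2KO, 10 were lower in matrix and 0 higher, with a median log2 ratio of -1.35 in 2KO and -1.79 in WT, and 9 of the 10 genes lower in WT were also lower in 2KO. Beside this and the other ORS lists, 8.61% of all measured genes were lower and 5.2% higher in 2KO. The WT shares were 13.9% and 8.6%. Col17a1, the hemidesmosomal collagen, had a signal of 2247 in 2KO matrix and 13462 in 2KO ORS, against 1200 in WT matrix and 13286 in WT ORS. Itgb8 read 393 in 2KO matrix and 1883 in 2KO ORS, against 131 in WT matrix and 3035 in WT ORS. Lamb3, a laminin chain, read 666 in 2KO matrix and 3279 in 2KO ORS, against 209 in WT matrix and 2656 in WT ORS. Each was brighter in 2KO matrix than in WT matrix, and each was still over 4-fold higher in 2KO ORS than in 2KO matrix.

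Regulators of the ORS and of follicle stem cells numbered 24, of which 14 were lower in 2KO matrix and 3 higher, with a median log2 ratio of -1.13. In WT 14 were lower and 3 higher with a median of -1.78, and 11 of the 14 lower genes were lower in both. Gata6, a factor of the upper follicle and its ducts, had a signal of 142 in 2KO matrix and 873 in 2KO ORS, against 61.2 in WT matrix and 1361 in WT ORS. Lrig1, a brake on growth factor signalling in the upper follicle, read 987 in 2KO matrix and 4444 in 2KO ORS, against 429 in WT matrix and 10072 in WT ORS. Nfatc1, which holds bulge stem cells quiescent, read 999 in 2KO matrix and 3145 in 2KO ORS, against 106 in WT matrix and 1291 in WT ORS. All 3 stayed past 2-fold, with log2 ratios of -2.62, -2.17 and -1.65 in 2KO beside -4.03, -4.55 and -3.61 in WT. Runx1, which drives stem cell activation, was one of 3 genes called lower in 2KO alone, with 1081 in 2KO matrix and 3991 in 2KO ORS, against 1312 in WT matrix and 1659 in WT ORS. Of 6 measured probe sets of Runx1, 3 were lower by 2-fold in 2KO matrix. The higher members in 2KO were Grhl3, Id2 and Id3, which were also on the matrix side in WT.

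Surface and secreted genes of the ORS gave 12 lower and 0 higher of 24 measured in 2KO, with a median log2 ratio of -0.91. In WT 15 of 23 were lower and 1 higher, with a median of -2.15, and 11 of the 15 were lower in both. Postn, a matricellular protein, had a signal of 1700 in 2KO matrix and 14930 in 2KO ORS, against 458 in WT matrix and 11372 in WT ORS. Sfrp1, a WNT inhibitor, read 335 in 2KO matrix and 3502 in 2KO ORS, against 166 in WT matrix and 6382 in WT ORS, and all 5 of its probe sets were lower in 2KO matrix. Cd34, the bulge stem cell antigen, read 128 in 2KO matrix and 737 in 2KO ORS, against 125 in WT matrix and 1036 in WT ORS. Cd34 was the member whose 2KO matrix signal matched WT, while Postn and Sfrp1 were brighter in 2KO matrix than in WT matrix. Ccn2 and Aqp3, both over 6-fold lower in WT matrix, were within 2-fold in 2KO with log2 ratios of 0.12 and -0.18.

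Keratins of the ORS and of the companion layer were the ORS group with the fewest shared calls. Of 9 measured, 1 was lower in 2KO matrix and 3 higher, against 7 lower and 1 higher in WT. Krt15, the basal and bulge keratin, was the 1 lower in both, with 5200 in 2KO matrix and 22386 in 2KO ORS, against 2994 in WT matrix and 22416 in WT ORS. Krt14 read 13804 in 2KO matrix and 23202 in 2KO ORS, against 4805 in WT matrix and 23776 in WT ORS, and came within 2-fold in 2KO. Krt6a, a keratin of the companion layer and of wounded skin, read 8460 in 2KO matrix and 13528 in 2KO ORS, against 478 in WT matrix and 12078 in WT ORS. For these 3 keratins the ORS signals of the 2 genotypes were close, and the 2KO matrix lay between the WT matrix and the ORS samples. In log2 it was above the WT matrix by 0.80 for Krt15, 1.52 for Krt14 and 4.14 for Krt6a. Krt14 and Krt6a have 3 measured probe sets each, of which 1 was lower by 2-fold in 2KO matrix. Krt75, a companion layer keratin, was higher in matrix in both genotypes, with log2 ratios of 3.00 in 2KO and 4.17 in WT.

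**Figure D3:**
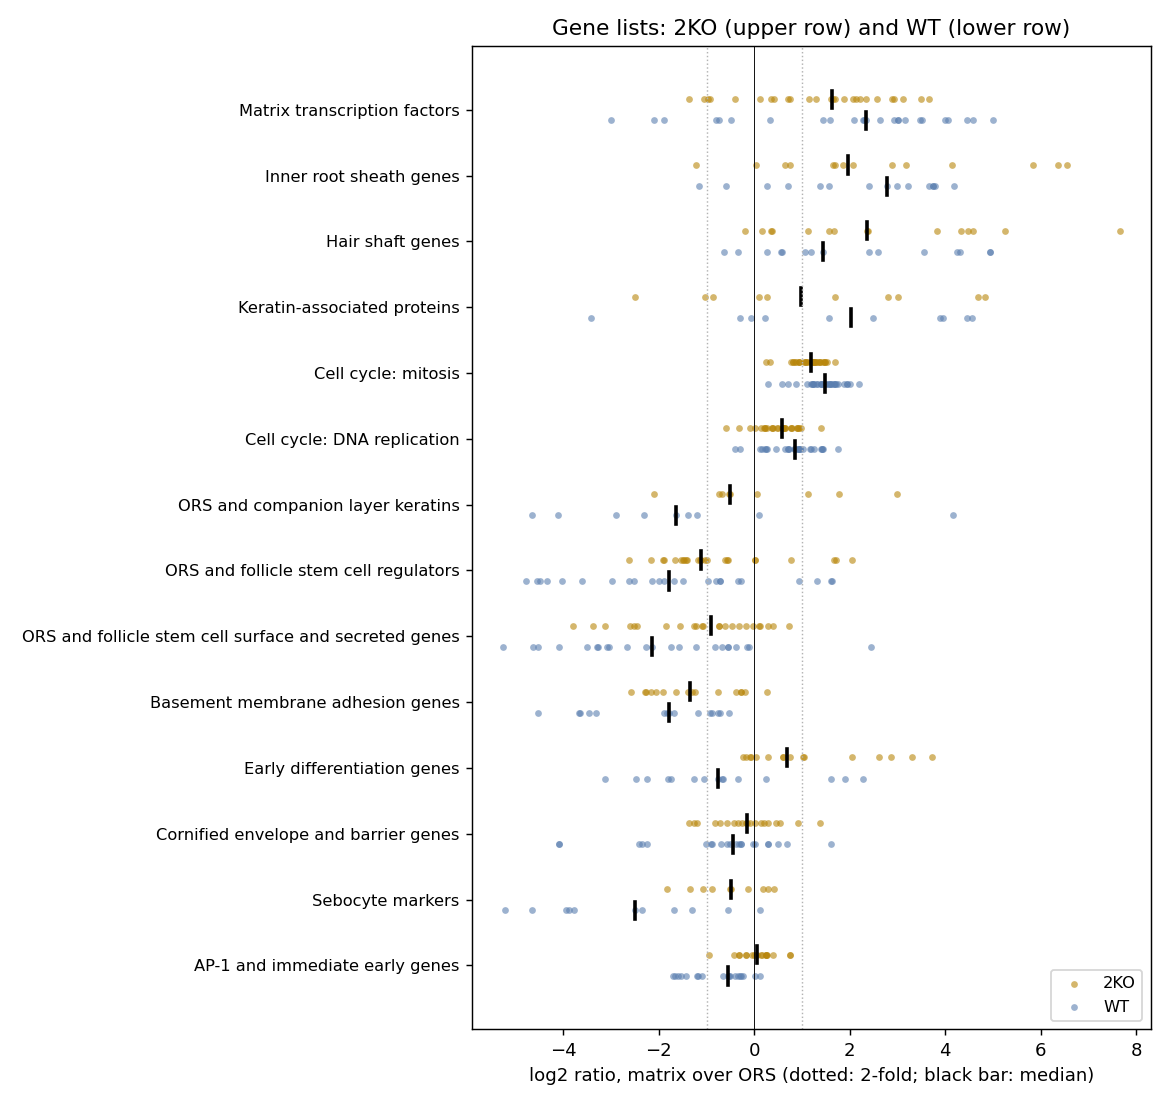
Each point is a gene of the list named at the left, at its log2 ratio of matrix over ORS, with the 2KO ratios in the upper row and the WT ratios in the lower row of each list; black bars are medians and dotted lines mark 2-fold. The medians of the matrix lists lie right of 0 in both genotypes, and those of the ORS lists left of 0, nearer to it in 2KO. Single genes lie on the other side, among them 4 of the 9 ORS and companion layer keratins in 2KO. The early differentiation genes have a median of 0.68 in 2KO and -0.76 in WT.

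The groups can be set beside each other by the genes called in WT. Of 45 genes in the 4 matrix, inner root sheath and hair shaft lists that were higher in WT matrix, 38 were also higher in 2KO matrix (84.4%) and 0 were lower. Of 46 genes in the 4 ORS and basement membrane lists that were lower in WT matrix, 32 were also lower in 2KO (69.6%) and 1 was higher. Of 22 genes in the early differentiation, cornified envelope and sebocyte lists that were lower in WT matrix, 4 were also lower in 2KO (18.2%) and 4 were higher. The shares over all genes were 35.8% for the higher and 43.8% for the lower direction, and 72.1% and 64.1% among genes past 4-fold in WT. The shares of the matrix and ORS lists are nearer to those of the 4-fold genes than to those over all genes. The share of the differentiation and sebocyte lists lies below both. All these listed genes had large median ratios in WT, and whether ratio size bears on the shares was not tested. The median log2 ratio of these genes was 2.69 in 2KO beside 3.17 in WT for the matrix lists, -1.45 beside -2.95 for the ORS lists, and -0.08 beside -2.39 for the differentiation and sebocyte lists. These genes were chosen by their WT ratio, and noise alone makes such genes smaller on another pair of arrays. The smaller 2KO medians therefore do not by themselves show a difference between the genotypes.

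Several genes of differentiating epidermis and ducts had opposite directions in the 2 genotypes. In all, 29 genes were at least 2-fold in opposite ways, 22 of them higher in 2KO matrix and lower in WT matrix. Krt79, a keratin of the follicle opening and of sebaceous ducts, and Krt77, an epidermal and sweat duct keratin, are shown with their promoters because they lead these reversals among the keratins. Krt79 lies at chr15:101940275-101940574 (minus strand) and Krt77 at chr15:101869656-101869955 (minus strand).
Krt79: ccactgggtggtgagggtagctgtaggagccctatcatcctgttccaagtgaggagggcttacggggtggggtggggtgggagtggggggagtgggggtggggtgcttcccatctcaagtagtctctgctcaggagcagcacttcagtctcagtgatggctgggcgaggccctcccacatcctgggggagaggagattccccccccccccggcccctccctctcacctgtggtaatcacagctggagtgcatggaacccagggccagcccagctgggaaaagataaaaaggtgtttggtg
Krt77: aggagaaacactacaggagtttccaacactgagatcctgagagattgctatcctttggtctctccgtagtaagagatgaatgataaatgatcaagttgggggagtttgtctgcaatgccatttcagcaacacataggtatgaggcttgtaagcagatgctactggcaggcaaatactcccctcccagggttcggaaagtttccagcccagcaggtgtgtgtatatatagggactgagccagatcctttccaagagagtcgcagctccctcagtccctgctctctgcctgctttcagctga
Neither window holds any of the 4 motifs that were searched, unlike those of the inner root sheath keratins above. Krt79 had a signal of 19517 in 2KO matrix and 5691 in 2KO ORS, against 1077 in WT matrix and 18647 in WT ORS. It was 3.43-fold higher in 2KO matrix and 17.3-fold lower in WT matrix, and both 2KO arrays moved away from WT, upwards in matrix and downwards in ORS. Krt77 read 608 in 2KO matrix and 68.8 in 2KO ORS, against 221 in WT matrix and 1937 in WT ORS. The 2KO ratio of Krt77 is at least 7.31-fold, since the ORS side was below the floor. Both keratins have 1 probe set each.

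Calm4, a calmodulin-like protein of differentiating epidermis, had a signal of 4078 in 2KO matrix and 663 in 2KO ORS, against 899 in WT matrix and 5026 in WT ORS. Cst6, a cystatin of the cornifying layers, read 4097 in 2KO matrix and 583 in 2KO ORS, against 797 in WT matrix and 5190 in WT ORS. Calm4, Cst6 and Krt77 were the 3 genes past 4-fold in opposite ways in the 2 genotypes. Klk7, a protease of shedding skin, read 1157 in 2KO matrix and 444 in 2KO ORS, against 321 in WT matrix and 5452 in WT ORS. Defb6, a defensin, read 2547 in 2KO matrix and 944 in 2KO ORS, against 524 in WT matrix and 13578 in WT ORS. In every one of these the 2KO ORS signal was several-fold below that of WT ORS and the 2KO matrix signal above that of WT matrix. Over the early differentiation list as a whole, 7 of 16 measured genes were higher in 2KO matrix and 0 lower, against 3 higher and 7 lower of 15 in WT. The shares over all measured genes were 5.2% higher and 8.61% lower in 2KO, and 8.6% and 13.9% in WT. Dsg1a and Dsc1, desmosomal cadherins of suprabasal cells, were higher in matrix in both genotypes, 13.3-fold and 9.83-fold in 2KO.

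Sebocyte markers were lower in matrix far more widely in WT than in 2KO, with 3 of 10 measured genes in 2KO and 9 of 11 in WT. The shares lower over all measured genes were 8.61% in 2KO and 13.9% in WT. Pparg, the master regulator of fat and sebaceous cells, had a signal of 46.6 in 2KO matrix and 210 in 2KO ORS, against 16.9 in WT matrix and 1289 in WT ORS. Far2 read 172 in 2KO matrix and 246 in 2KO ORS, against 127 in WT matrix and 3188 in WT ORS. Acsbg1 read 138 in 2KO matrix and 253 in 2KO ORS, against 53.4 in WT matrix and 3120 in WT ORS. In these 3 lipid genes the WT ORS was the 1 bright array. The summed signal of the 11 markers was 20695 in 2KO matrix and 21351 in 2KO ORS, against 26181 in WT matrix and 74823 in WT ORS. Whether the WT ORS sort held more sebaceous cells was not tested.

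**Figure D4:**
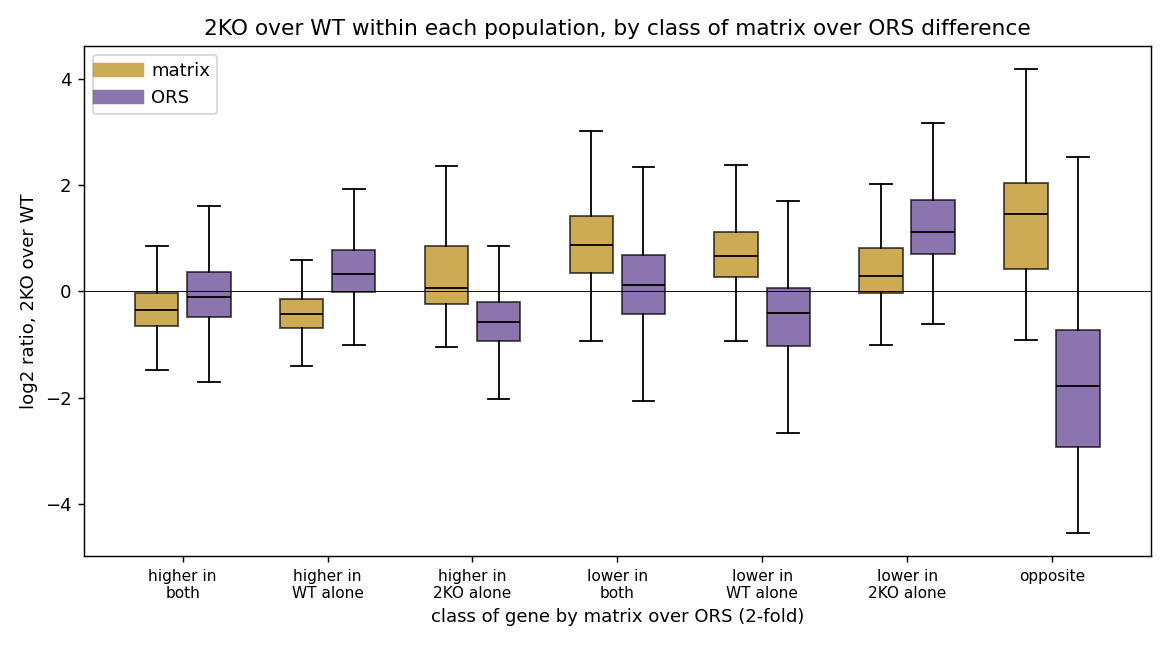
Boxes show the log2 ratio of 2KO over WT within matrix (left box of each pair) and within ORS (right box), for classes of genes set by their matrix over ORS calls; lines are medians, boxes quartiles and whiskers the farthest gene within 1.5 times the box length. Genes lower in matrix in both genotypes have a median of 0.87 in matrix and 0.11 in ORS, and genes with opposite calls have medians of 1.46 in matrix and -1.78 in ORS.

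Where the 2KO and WT contrasts differ, either array of the 2KO pair can have moved. Genes lower in matrix in both genotypes were brighter in 2KO matrix than in WT matrix by a median of 0.87 in log2, with a median of 0.11 in ORS. Genes lower in WT matrix alone were brighter in 2KO matrix (median 0.66) and dimmer in 2KO ORS (median -0.41). Genes higher in WT matrix alone had the reverse, with medians of -0.42 in matrix and 0.33 in ORS. For the genes of the ORS lists called in WT, the median of 2KO over WT was 1.44 in matrix and -0.04 in ORS, and for the differentiation and sebocyte genes it was 0.88 in matrix and -1.85 in ORS. By these medians the narrowing of ORS genes lay on the matrix array, and that of the pooled differentiation and sebocyte genes more on the ORS array. Members of the early differentiation list were split. Krtdap and Sbsn moved more in matrix (log2 3.22 and 1.83, beside 1.05 and -0.52 in ORS). Krt77 and Calm4 moved more in ORS (-4.54 and -2.92, beside 1.46 and 2.18 in matrix). The classes were set on these same 4 arrays, so their medians are a description and not a test.

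The largest ratio towards ORS in 2KO was that of Serpina3n, a protease inhibitor of inflamed tissue with close paralogs, with 67.8 in 2KO matrix and 2674 in 2KO ORS, against 5.22 in WT matrix and 107 in WT ORS. It was at least 32.1-fold lower in 2KO matrix and at least 1.28-fold lower in WT matrix. Aldh3a1, an aldehyde dehydrogenase, read 228 in 2KO matrix and 4345 in 2KO ORS, against 70.4 in WT matrix and 10229 in WT ORS. Pcp4, a calmodulin-binding protein, read 188 in 2KO matrix and 3199 in 2KO ORS, against 6.41 in WT matrix and 132 in WT ORS. Pcp4 was 17.0-fold lower in 2KO matrix and at least 1.58-fold lower in WT matrix. For Serpina3n and Pcp4 the WT matrix was below the floor, so the WT ratios are bounds and a bias in WT cannot be sized, whereas Aldh3a1 was past 2-fold in both genotypes. Tgfbi and Col14a1, extracellular matrix genes, were 8.10-fold and 8.57-fold lower in 2KO matrix and 20.1-fold and 3.94-fold lower in WT matrix. Altogether 230 genes measured in both genotypes were lower in matrix in 2KO alone, and their median of 2KO over WT was 1.13 in ORS and 0.29 in matrix. A further 108 were lower in 2KO and not measured in WT. On the matrix side 217 genes were higher in 2KO alone and 39 were not measured in WT.

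Among developmental regulators of other lineages, a class that Polycomb is known to silence, 62 of 105 were measured in 2KO and 14 in WT. In 2KO 9 were lower in matrix (14.5% beside 8.61% of all genes) and 1 was higher. Foxa1, an endoderm factor, had a signal of 1157 in 2KO matrix and 3715 in 2KO ORS, against 57.2 in WT matrix and 49.1 in WT ORS. Sox11, a neural and embryonic factor, read 533 in 2KO matrix and 1368 in 2KO ORS, against 33.6 in WT matrix and 48.2 in WT ORS. Emx2, a forebrain factor, read 89.5 in 2KO matrix and 431 in 2KO ORS, against 11.3 in WT matrix and 9.81 in WT ORS. These 3 were below the floor in both WT samples, and in 2KO they were brighter in ORS than in matrix. Irx3 was ORS-biased in both genotypes, 3.42-fold lower in 2KO matrix and 19.8-fold lower in WT matrix. Imprinted genes leaned the same way, with 7 of 19 lower and 2 higher in 2KO, among them Peg3, with 1365 in 2KO matrix and 4784 in 2KO ORS, against 304 in WT matrix and 1219 in WT ORS. Of 25 Hox genes measured in 2KO, 4 were higher and 1 lower in matrix, where 5.2% of all genes were higher and 8.61% lower.

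Among signalling genes, Shh, the growth signal of the hair matrix, had a signal of 3185 in 2KO matrix and 217 in 2KO ORS, against 1112 in WT matrix and 147 in WT ORS. Its receptor and target Ptch1 read 4615 in 2KO matrix and 3981 in 2KO ORS, against 4601 in WT matrix and 1974 in WT ORS. Gli1, the other standard target, read 1151 in 2KO matrix and 1102 in 2KO ORS, against 656 in WT matrix and 179 in WT ORS. The ligand was thus 14.7-fold higher in 2KO matrix while both targets were level between the 2KO samples, and in WT both were past 2-fold on the matrix side. Of 14 pathway genes measured in 2KO, 1 was higher and 2 lower, beside 5.2% and 8.61% of all genes, and in WT 4 of 11 were higher and 2 lower.

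The WNT list gave 9 higher and 8 lower of 38 measured in 2KO, beside 13 higher and 6 lower of 38 in WT, and 7 of the higher and all 6 of the lower WT calls were shared. Wnt5a, a ligand, had a signal of 1754 in 2KO matrix and 587 in 2KO ORS, against 3084 in WT matrix and 279 in WT ORS. Wif1, a secreted WNT inhibitor, read 3486 in 2KO matrix and 4785 in 2KO ORS, against 1239 in WT matrix and 228 in WT ORS. Sostdc1, an inhibitor of WNT and BMP, read 1232 in 2KO matrix and 3017 in 2KO ORS, against 186 in WT matrix and 9040 in WT ORS. Wif1 lost its matrix bias, chiefly on the ORS array, and Sostdc1 kept its ORS bias at 2.45-fold beside 48.6-fold in WT. In the BMP list 7 of 23 were higher and 3 lower in 2KO. Bmp4 read 1614 in 2KO matrix and 221 in 2KO ORS, against 2085 in WT matrix and 134 in WT ORS, and the BMP target Id1 read 9825 in 2KO matrix and 2114 in 2KO ORS, against 14862 in WT matrix and 4748 in WT ORS. The Notch list had 3 higher and 1 lower of 19, led by Heyl and Nrarp on the matrix side with log2 ratios of 1.97 and 1.36. Of 26 FGF and EGF genes, 3 were higher and 6 lower, with Hbegf and Fgfr1 lower in matrix in both genotypes. Beside each of these lists, the shares over all measured genes were 5.2% higher and 8.61% lower in 2KO. In WT they were 8.6% higher and 13.9% lower.

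Immediate early genes of the AP-1 class, which cell dissociation can induce, were level between the 2KO samples. Of 19, 0 were higher and 0 lower in 2KO with a median log2 ratio of 0.05, which was below 0 after quantile normalization and after scaling to the hybridisation controls, against 0 higher and 8 lower in WT with a median of -0.55. Egr2 read 4283 in 2KO matrix and 4845 in 2KO ORS, against 3577 in WT matrix and 11659 in WT ORS. Wound and stress genes were mixed, with 5 of 24 higher and 9 lower in 2KO, beside 5.2% and 8.61% of all genes. In WT 0 of 21 were higher and 10 lower, beside 8.6% and 13.9% of all genes. S100a9, an alarmin of neutrophils and stressed keratinocytes, read 2775 in 2KO matrix and 265 in 2KO ORS, against 59.8 in WT matrix and 65.5 in WT ORS. Tnc and Mmp13, genes of wound margins, ran the other way with log2 ratios of -2.70 and -2.85 in 2KO. Both were lower in WT matrix too, at -4.06 for Tnc and, as a bound, -1.47 for Mmp13. Of 19 p53 targets, 1 was higher and 1 lower in 2KO, close to the 2KO shares over all genes. Of 19 PRC1 genes, Cbx8 was the only one past 2-fold in 2KO, on the matrix side, beside 13.8% of all measured genes past it either way.

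**Figure D5:**
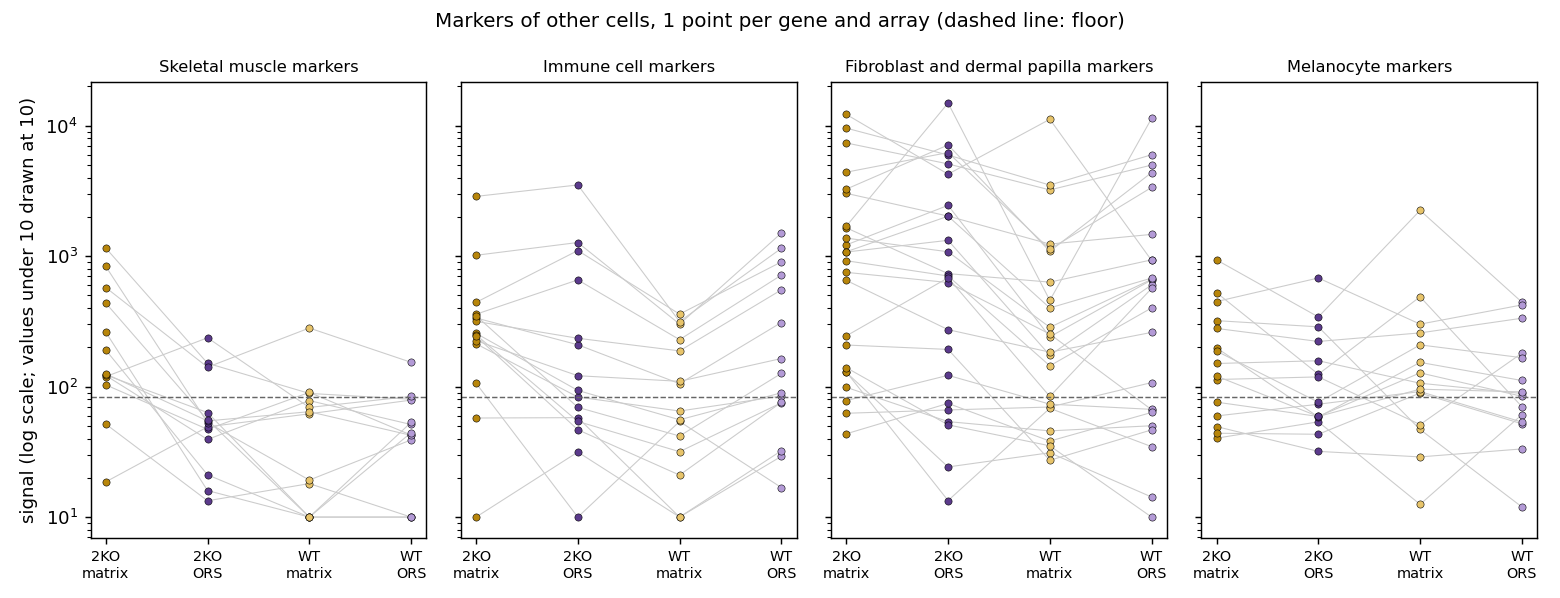
Each point is a marker gene of another cell type on 1 array, joined by lines across the 2KO matrix, 2KO ORS, WT matrix and WT ORS arrays, with the MAS5 signal on a log scale. All but 2 of the 13 skeletal muscle markers are above the dashed floor line in 2KO matrix, while 3 are in 2KO ORS, and the immune markers spread widely in 2KO.

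Markers of other cells moved with part of the contrast. Of 13 skeletal muscle markers, 11 were above the floor in 2KO matrix and 3 in 2KO ORS, and their summed signal was 4114 in 2KO matrix and 941 in 2KO ORS, against 794 in WT matrix and 689 in WT ORS. Acta1 read 1153 in 2KO matrix and 151 in 2KO ORS, against 88.7 in WT matrix and 80.1 in WT ORS. For the counts of markers that follow, the shares over all measured genes were 5.2% higher and 8.61% lower in 2KO, and 8.6% and 13.9% in WT. Of 13 immune markers measured in 2KO, 5 were higher in matrix and 1 lower. In WT 0 of 10 were higher and 6 lower, with a median log2 ratio of -1.44 beside 0.68 in 2KO. The general leukocyte gene Ptprc read 243 in 2KO matrix and 46.7 in 2KO ORS, and Tyrobp, a gene of myeloid cells, read 350 in 2KO matrix and 69.4 in 2KO ORS. The antigen presentation genes H2-Eb1 and H2-Aa, by contrast, had log2 ratios of -0.29 and -0.33 in 2KO. The summed immune signal was 7046 in 2KO matrix and 7563 in 2KO ORS, against 1896 in WT matrix and 5825 in WT ORS. Of 22 fibroblast and dermal papilla markers, 3 were higher and 4 lower in 2KO, with sums of 51446 in 2KO matrix and 56127 in 2KO ORS, against 24644 in WT matrix and 37713 in WT ORS. In WT 2 of 17 were higher and 8 lower, with a median log2 ratio of -0.77 beside 0.30 in 2KO. Of 10 melanocyte markers, 4 were higher, led by Kit and Dct, 0 were lower, and the sums were 3549 in 2KO matrix and 2388 in 2KO ORS, against 4305 in WT matrix and 2207 in WT ORS. Endothelial markers summed to 868 in 2KO matrix and 1514 in 2KO ORS, and 0 of 4 erythroid markers were above the floor on either. Krt8 and Krt18, among the Merkel cell markers, were lower in 2KO matrix, with 3 of 4 measured markers lower and sums of 1915 in 2KO matrix and 4647 in 2KO ORS, against 341 in WT matrix and 961 in WT ORS. The part of these cells in the differences above was not tested.

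Sex markers differed between the 2KO samples. Xist, transcribed from the inactive X, read 4482 in 2KO matrix and 9927 in 2KO ORS, against 8962 in WT matrix and 8358 in WT ORS. The Y-linked gene Eif2s3y read 1883 in 2KO matrix and 920 in 2KO ORS, against 612 in WT matrix and 295 in WT ORS. Both genes differed by over 2-fold between the 2KO samples, and Eif2s3y did so between the WT samples too, where Xist was level. The Y-linked genes Kdm5d and Uty had log2 ratios of 0.90 and 0.37 in 2KO, against 0.02 and -0.08 in WT. The part of sex in other differences was not tested.

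Agreement among probe sets and the third population give 2 further views. Of 229 genes higher in 2KO matrix that had a further measured probe set, 218 had the same sign on it (95.2%), and of 479 lower genes 467 did (97.5%). The further probe set also reached 2-fold for 95 of the 229 higher genes (41.5%) and 290 of the 479 lower genes (60.5%). Of the 630 genes higher in 2KO matrix than in ORS, 307 (48.7%) were also at least 2-fold above 2KO basal epidermis, and of the 1042 genes higher in 2KO ORS than in 2KO matrix, 342 (32.8%) were. Krt35, for example, read 36.5 in 2KO basal epidermis, whereas Postn read 8188 there, within 2-fold of its signal in 2KO ORS. The 2KO basal sample is labelled female, and the Y-linked genes Eif2s3y and Kdm5d read 1194 and 217 on its array, against 580 and 83.4 in WT basal epidermis, whose label names both sexes, so these signals go against the label.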

How the data were processed

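Each sample gave 1 Affymetrix array after biotin labelling by in vitro transcription, per the labels' protocols. Deposited values are linear intensities, 1 MAS5 signal per probe set, per the submitters' processing notes, whose version of MAS5 is not given in the sources used here. Each deposited array has a 2% trimmed mean of 500, so arrays were scaled to one trimmed mean, and a shift of most genes in the same direction would be scaled away.

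Of 45101 probe sets, 34958 name 1 gene in the platform annotation. Left out were 932 that name several and 9211 that the annotation does not list. Controls, 64 of the 45101, were left out as well. The brightest probe set by mean log2 signal stood for each of 18193 genes. RefSeq held 99.1% of the gene identifiers, and 0 symbols changed.

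Signals under the floor of 83.2 were raised to it, and log2 ratios of matrix over ORS were taken in 2KO and WT. Calls need 2-fold. With 1 array per group nothing was tested, and the number of arrays limits the precision.

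The 2 samples, the 35 gene lists and the markers were chosen with earlier results of these data known. Eligible for naming were Msx2, Krt79, Sox9, Ezh1 and Ezh2, the 20 largest and 20 smallest 2KO ratios and 2KO minus WT differences, the 10 largest ratios per direction shared by both genotypes, genes opposite at 4-fold, and up to 6 members per list and direction by 2KO ratio, WT ratio or difference. Mki67 was named as a marker. Promoters to print were chosen after their values were seen. Promoters were matched by gene identifier to RefSeq, and the start farthest upstream was used. Python 3.11.15, numpy 2.4.6, pandas 2.3.3 and matplotlib 3.10.9 were used.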

Additional observations from a re-analysis of the deposited data

Results flagged for a closer look

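In 29 genes the 2KO and the WT contrast of matrix over ORS ran in opposite directions by at least 2-fold each. The difference between the genotypes was not tested in any of them, since each contrast has 1 array per group. The values here are the 2KO log2 ratio minus the WT log2 ratio. Among genes higher in matrix in 2KO and lower in WT it was 6.13 for Defb6, 6 for Krt77, 5.89 for Krt79, 5.51 for Cst6, 5.47 for Klk7 and 5.1 for Calm4. It was 4.98 for Il1r2, a decoy receptor for interleukin 1, 4.32 for the keratin gene Krt80, 4.23 for the lipoxygenase gene Alox12e and 2.08 for Elovl4, which lengthens fatty acids of the skin barrier. Il1r2 had a signal of 578 in 2KO matrix and 181 in 2KO ORS, against 48.3 in WT matrix and 823 in WT ORS.

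In the other direction, with genes lower in matrix in 2KO and higher in WT, the difference was -3.7 for Sptssb, a subunit of the first enzyme of sphingolipid synthesis, -3.42 for Lypd6 and -3.3 for Dpysl3. It was -3.29 for Scnn1g, a subunit of the epithelial sodium channel, -3.09 for Gcnt1 and -2.71 for the potassium channel gene Kcnh1. Dpysl3 had a signal of 479 in 2KO matrix and 1983 in 2KO ORS, against 552 in WT matrix and 231 in WT ORS, and all 3 of its probe sets were lower in 2KO matrix.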

How the results depend on the processing

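No paired analysis was possible because each group has 1 array. The count of genes higher and lower in 2KO matrix was 1059 and 1725 with the floor at the 25th percentile, 266 and 462 at the 75th and 114 and 171 at 4-fold, against 630 and 1042. Shared calls were 179 higher and 300 lower with the 75th percentile floor, and 67 and 105 (17.3% of the lower WT calls) at 4-fold. Opposite calls were 113, 9 and 3 under these 3 settings, against 29. Higher genes made up 37.7% of the calls in 2KO, 47.4% with a common median for all arrays and 26.1% with the hybridisation controls as the scale. The median log2 ratio over genes was then 0.16 and -0.07 in 2KO and 0.18 and 0.35 in WT, and 15.9% of the WT-higher genes were higher in 2KO under the hybridisation controls.

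The 2KO medians of lists near 0 changed sign. With the hybridisation controls these were Sonic hedgehog (-0.1956), WNT (-0.0204), Notch (-0.0239), PRC2 (-0.0247), Hox (-0.1295) and AP-1 (-0.0944). With quantile normalization they were Sonic hedgehog (-0.0081) and AP-1 (-0.0315), and with the mean over probe sets WNT (-0.0471) and Hox (-0.1205). Hox was -0.0348 without cross-hybridising probe sets, PRC1 -0.024 with the 75th percentile floor, and FGF and EGF 0.0258 with a common median. The cause was not tested. Of 236 named genes past 2-fold, 0 changed sign in 1597 values under the 8 alternatives. A change of sign was unlikely in genes taken for being past 2-fold, and how many fell below 2-fold is not given. Signals near the floor limit low genes.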
